A study of Mus musculus with 13 samples.

Results

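The transcripts of 33 genes of autophagy and of the TFEB family of transcription factors were followed in the hippocampus of 5xFAD mice. The genes were taken by symbol from the deposited table of 36287 genes, and all 33 were found and were among the 22065 genes with enough reads for testing. They comprise 3 transcription factors, 3 subunits of the ULK1 initiation complex, 6 genes of the class III PI3-kinase complexes, 3 genes of membrane supply and PI3P binding, 6 genes of the conjugation machinery, 5 ATG8 family genes, 4 cargo receptors and 3 genes of fusion and tethering. The mice of all 3 groups carry the 5xFAD transgenes, human genes bearing mutations of familial Alzheimer's disease, and wild-type mice were not analysed here. The saline group has 4 libraries (mice 18, 19, 32 and 38) and is the control. Aducanumab is an antibody that binds aggregated amyloid beta, and mice 24, 50, 56 and 58 form its group of 4. ACLP-NT is known here by its code name, and its group of 5 holds mice 17, 27, 49, 53 and 55. The series title places the work with lysosomal homeostasis of microglia, while each library holds poly(A)-selected RNA of all cells of a hippocampus. The sources used here do not give age, dose, route or duration.

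Autophagy encloses cytoplasm, protein aggregates or organelles in a double membrane and delivers them to lysosomes for breakdown. The ULK1 kinase complex starts the process, a lipid kinase complex built on Pik3c3 and Becn1 marks the membrane, ubiquitin-like conjugation attaches ATG8 proteins to it, cargo receptors bind those proteins, and Rab7 with its tethers fuses the vesicle with the lysosome. TFEB, TFE3 and MITF bind E-box sequences in promoters of lysosomal and autophagy genes, and they are controlled to a large extent through phosphorylation and movement into the nucleus, neither of which an RNA measurement sees.

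The E-box CACGTG is shown in the promoters of the members that hold it, since it is the core that TFEB family proteins recognise. Promoter windows of 300 bases around the gene start (RefSeq, GRCm38.p6) were matched by symbol for 26 of the 33 genes. CACGTG, which reads the same on both strands, was in the window of 5 of 26 members (19.2%) and of 8.09% of 27025 genes with a window. The sequences below run 5′ to 3′ on the strand of the gene, and capitals mark CACGTG.
Atg3, chr16:45158695-45158780, plus strand: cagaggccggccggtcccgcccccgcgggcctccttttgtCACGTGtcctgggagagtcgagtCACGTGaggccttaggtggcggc
Atg5, chr10:44268285-44268338, plus strand: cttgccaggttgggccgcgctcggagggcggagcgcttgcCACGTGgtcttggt
Atg7, chr6:114670924-114671009, plus strand: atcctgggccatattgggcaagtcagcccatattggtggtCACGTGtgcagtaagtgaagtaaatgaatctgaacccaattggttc
Atg14, chr14:47568430-47568475, minus strand: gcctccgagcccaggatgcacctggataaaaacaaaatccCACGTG
Rubcn, chr16:32868409-32868494, minus strand: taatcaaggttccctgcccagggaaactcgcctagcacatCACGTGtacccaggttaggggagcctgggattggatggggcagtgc

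The window of Atg3 holds CACGTG at 94 and at 71 bases before the start, and the second copy lies within TCACGTGA, an extended form found in 1 of 26 members and in 1.12% of all genes. The distance to the annotated start was 14 bases for Atg5, 132 for Atg7, 1 for Atg14 and 88 for Rubcn. In Atg14 the last 5 bases of the motif lie past the start. Whether each of these is the first or main start of its gene was not examined. Atg3, Atg5 and Atg7 act in conjugation, while Atg14 and Rubcn bind the lipid kinase complex. Of a list of lysosomal genes with reported TFEB sites, which was chosen for such sites, 11 of the 17 genes with a window held CACGTG. A match is a description of letters and shows no binding.

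Total counts per library ran from 53642019 to 69734713, and the lowest count of any of the 33 genes in any library was 268, for Mitf in Aducanumab 24. The numbered libraries are taken as separate mice, and the p-values measure the spread between these samples alone. Markers of neurons, astrocytes, oligodendrocytes, microglia and hippocampal subfields had reads in every library. Choroid plexus markers, from the epithelium beside the hippocampus, summed to 53.4 to 5069 CPM in saline, 88.1 to 5219 CPM in Aducanumab and 87.4 to 5092 CPM in ACLP-NT. Libraries rich and poor in them stood in every group. On average all 10 were higher in both treated groups than in saline. The score, their mean centred log2 CPM, differed from saline by 1.69 for ACLP-NT and by 1.39 for Aducanumab. Cdh3 was the one of those 10 markers with 0 reads in some libraries, in 2 of 13. Microglia markers summed to 1209 to 1480 CPM in saline, 992 to 1241 CPM in Aducanumab and 825 to 1226 CPM in ACLP-NT. Of 8 neocortex markers 0 were higher in either treated group than in saline, with score differences of -0.38 for ACLP-NT and -0.70 for Aducanumab. Of 10 hippocampal subfield markers 9 and 8 were higher, with differences of 0.26 and 0.090. The part of such differences in the fold changes below was not tested, apart from fits with the choroid plexus or microglia score as covariate. In bulk tissue, fewer cells of a type and less RNA per cell cannot be told apart.

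Levels between genes are compared as FPKM, which scales fragments to the length of the transcript and to the library. Median levels over the 13 libraries spanned 1.65 to 192 FPKM. Gabarapl1, an ATG8 protein of the GABARAP subfamily, had the highest level of the 33 at 192.4 FPKM (177.7 to 209 over libraries) and stood at the 99.5th percentile of the genes tested. Rab7, the small GTPase of late endosomes and lysosomes, followed at 94.2 FPKM (88.4 to 97.6) and Sqstm1, the cargo receptor p62, at 92.3 FPKM (88.6 to 98.5). The ranges of these last 2 genes overlapped and did not reach that of Gabarapl1. Mitf (1.65 FPKM, 0.69 to 2.68) and Tfeb (1.69 FPKM, 1.42 to 2.19) had the lowest levels, with overlapping ranges, and were below the median of the genes tested, unlike the other 31 members. Tfe3 lay above both at 3.77 FPKM (3.32 to 4.13).

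**Figure D1:**
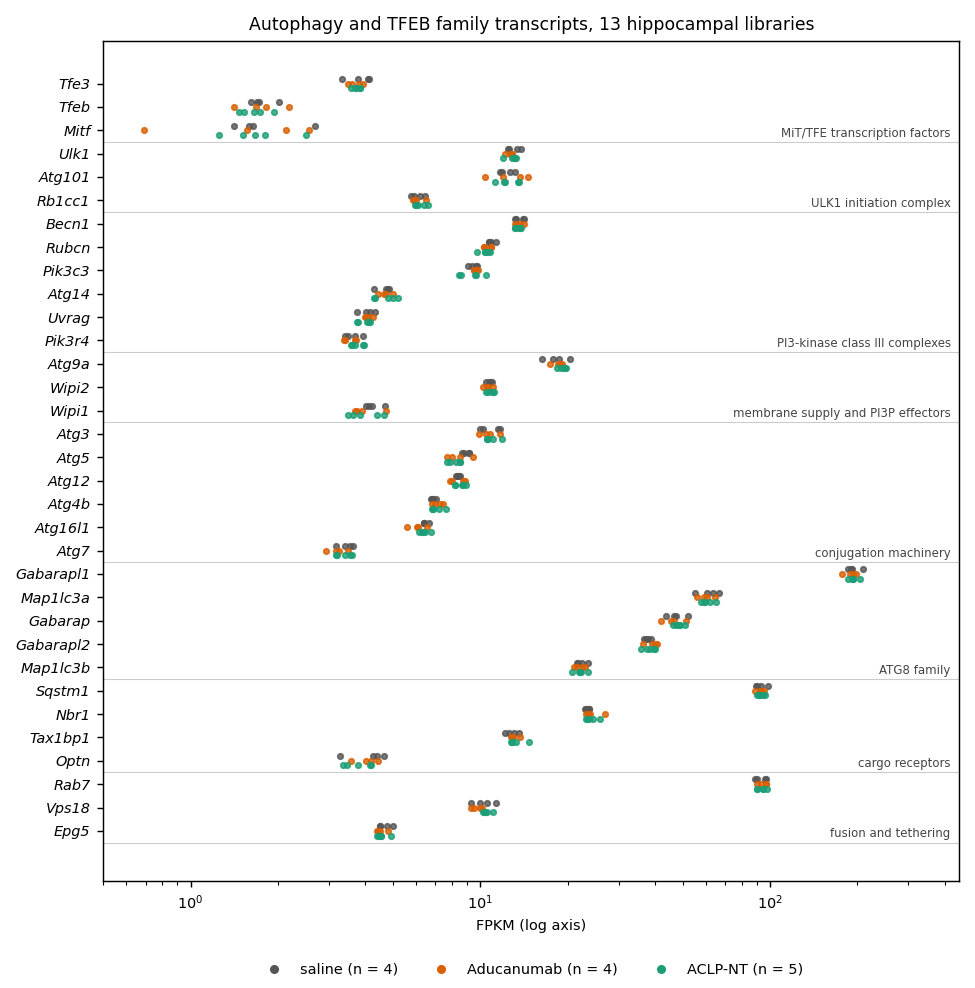
FPKM on a log axis of the 33 genes, grouped by role, with 1 point per library (saline n = 4, Aducanumab n = 4, ACLP-NT n = 5). The 3 colours overlap in nearly every gene, Gabarapl1 stands at the right near 192 FPKM, and Mitf has the widest scatter, from 0.69 to 2.68 FPKM.

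The ATG8 family and the cargo receptors kept 1 order of FPKM in all 13 libraries, as did the genes of membrane supply and of fusion. Tfeb and Mitf, Ulk1 and Atg101, Atg5 and Atg12, and Uvrag and Pik3r4 changed places between libraries. In the ATG8 family, Gabarapl1 made up a median of 53.6% of the summed FPKM (50.4 to 54.5%), Map1lc3a 16.9%, Gabarap 13.2%, Gabarapl2 10.6% and Map1lc3b 6.15%. Map1lc3a and Map1lc3b encode the LC3 proteins used as markers of autophagosomes, and their FPKM ranges, 54.9 to 66.8 and 20.7 to 23.5, did not overlap. Among cargo receptors, which bind ubiquitinated cargo, Sqstm1 made up 69.3%, Nbr1 17.8%, Tax1bp1 9.67% and Optn 3.02%. In the transcription factor family Tfe3 held 53.2% (44.5 to 65.2%), Tfeb 24.1% (21.0 to 25.8%) and Mitf 23.7% (11.4 to 31.6%). Summed over a role, the highest library exceeded the lowest by 1.42-fold for the transcription factors, by 1.18-fold for the ULK1 complex and by 1.08-fold to 1.12-fold for the other 6 roles. Several ATG8 genes are similar in sequence, and the sources used here do not say how shared reads were assigned.

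**Figure D2:**
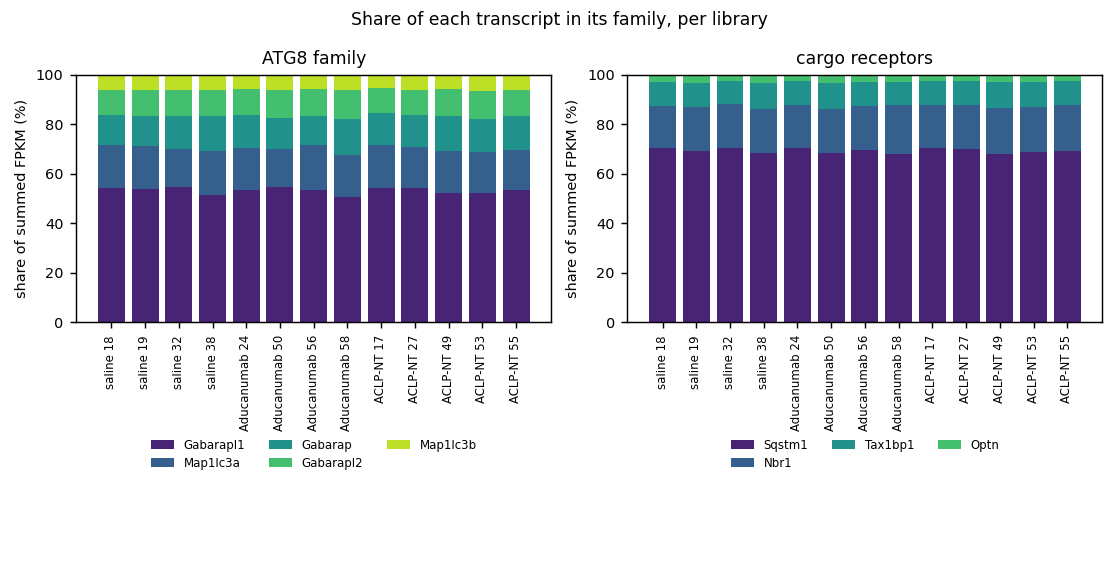
Share of each transcript in the summed FPKM of its family (%, stacked bars) in each of the 13 libraries, for the ATG8 family and the cargo receptors. Gabarapl1 takes 50.4 to 54.5% and Sqstm1 67.8 to 70.5% in every library.

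Between treatments, none of the 33 genes passed an adjusted p of 0.05 in any comparison (edgeR's quasi-likelihood test, Benjamini-Hochberg adjustment over 22065 genes). In ACLP-NT against saline 0 members passed, as did 0% of all genes, and 0 members had an unadjusted p below 0.05 where 5.88% of all genes did. In Aducanumab against saline 0 members passed (0% of all genes) and 0 had an unadjusted p below 0.05 (4.68% of all genes). In ACLP-NT against Aducanumab the counts were 0 (0%) and 0 (3.24%). A test for any difference among the 3 groups also gave 0 members (0% of all genes), and 0 at an unadjusted p below 0.05 (4.56%), with a smallest adjusted p of 0.999. DESeq2 gave 0 members on either threshold. Limma on log2(FPKM + 1) gave 0 passing and 1 at an unadjusted p below 0.05, Atg5 in ACLP-NT against saline. Other settings also put members below that unadjusted threshold. Atg5 was below it in the same comparison with limma on log2(FPKM + 0.1) and with the filter at a mean FPKM of 5. Vps18 was below it in ACLP-NT against Aducanumab without a filter, with upper quartile scaling and with the compared groups alone.

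The fold changes were small in both directions. In ACLP-NT against saline 16 members were higher and 17 lower. Their median was -0.0052 on the log2 scale, beside -0.0015 for all genes, and the values ran from -0.13 (Atg5) to 0.072 (Atg9a). In Aducanumab against saline 11 were higher and 22 lower, with a median of -0.017 beside 0.0036, from -0.099 (Atg7) to 0.057 (Nbr1). In ACLP-NT against Aducanumab 20 were higher and 13 lower, with a median of 0.0096 beside -0.0065, from -0.096 (Optn) to 0.11 (Vps18). These comparisons share samples and are not independent of each other.

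The 95% intervals of the fold changes were narrow for most members. The interval lay within a 1.25-fold change either way for 30 of 33 members in ACLP-NT against saline, all but Tfeb, Mitf and Optn. It did so for 32 members in Aducanumab against saline, all but Mitf, and for 31 in ACLP-NT against Aducanumab, all but Tfeb and Mitf. Within 1.1-fold lay 13, 10 and 14 members. The median coefficient of variation of CPM, counts scaled to library size after TMM, over the 13 libraries was 4.74% for the 33 genes. It was 7.0% for the 10265 tested genes between the lowest and highest mean CPM of the members. Those genes were not matched to the members for level within that range. Mitf had the highest of the members at 31.3%, ahead of Tfeb at 11.9% and Optn at 10.8%.

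**Figure D3:**
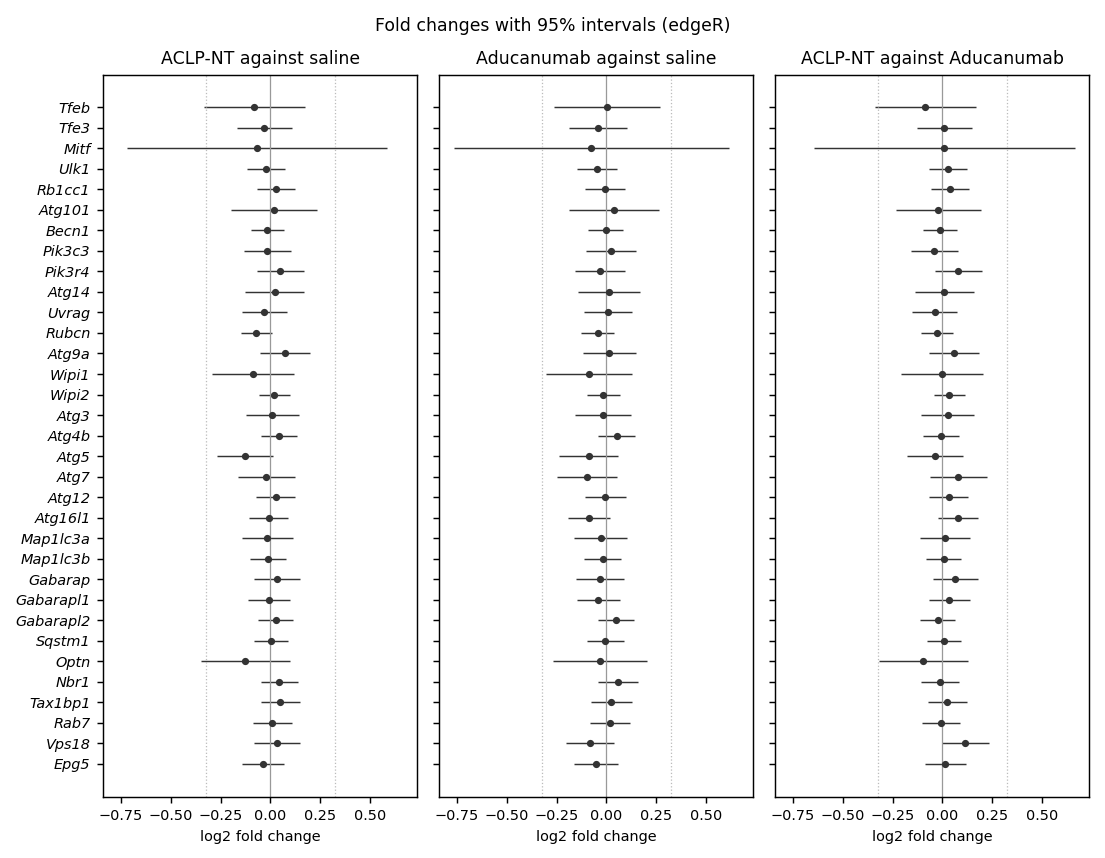
Log2 fold changes (points) with 95% intervals (bars) of the 33 genes in the 3 comparisons, with dotted lines at a 1.25-fold change. Most intervals lie inside the dotted lines, and that of Mitf reaches beyond them on both sides in every comparison.

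Per-library values below are in CPM and follow the order of mice given above. Tfeb, the factor most closely tied to lysosomal gene expression (ENSMUSG00000023990, chromosome 17, 48047955 to 48103344 in the coordinates of the table, whose genome build is not named), was at 9.94, 10.4, 10.6 and 12.3 in saline, 8.77, 10.2, 11.2 and 13.2 in Aducanumab and 9.05, 9.55, 11.8, 10.6 and 10.2 in ACLP-NT. The 3 groups overlapped, and the lowest and highest values were both in Aducanumab. Means were 10.8 ± 1.03 (SD, n = 4), 10.9 ± 1.85 (SD, n = 4) and 10.2 ± 1.05 CPM (SD, n = 5), and the log2 fold change was -0.082 (SE 0.118) for ACLP-NT against saline and 0.0029 (SE 0.124) for Aducanumab against saline. Tfe3, its close relative on the X chromosome, was at 40.9, 41.4, 33.4 and 37.3 in saline, 39.8, 35.9, 35.3 and 37.6 in Aducanumab and 37.3, 38.8, 35.2, 38.5 and 37.1 in ACLP-NT. All treated libraries lay inside the saline range, and the log2 fold changes were -0.032 (SE 0.0644) and -0.042 (SE 0.068).

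Mitf, which also directs pigment cell development (ENSMUSG00000035158), was at 10.7, 9.51, 11.1 and 17.7 CPM in saline, 4.67, 10.4, 14.5 and 16.9 in Aducanumab and 12.2, 11.3, 16.5, 8.405 and 10.2 in ACLP-NT. The groups overlapped, with means of 12.3 ± 3.71 (SD, n = 4), 11.6 ± 5.35 (SD, n = 4) and 11.7 ± 3.02 CPM (SD, n = 5). The 4 highest values were in saline 38, Aducanumab 58, ACLP-NT 49 and Aducanumab 56, whose choroid plexus scores were 2.19, 2.37, 1.96 and 2.02, while ACLP-NT 53 had a score of 2.23 and the second lowest Mitf. The score is the mean centred log2 CPM of the 10 markers, and its part in these values was not tested apart from a fit with it as a covariate. Mitf in ACLP-NT against saline was at -0.067 (SE 0.304), at -0.23 with the choroid plexus score in the fit and at 0.175 with the microglia score in it, none of which passed.

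**Figure D4:**
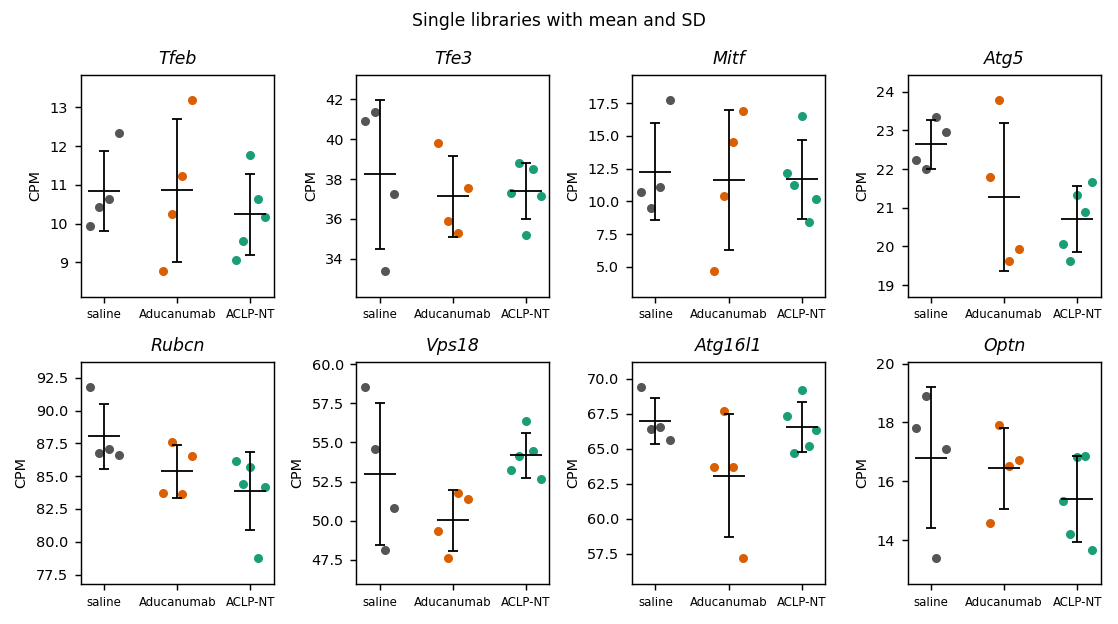
CPM per library (points) of the 3 transcription factors and of Atg5, Rubcn, Vps18, Atg16l1 and Optn, with the mean and SD of each group (axes do not start at 0). Atg5 and Rubcn do not overlap between saline and ACLP-NT, nor does Vps18 between Aducanumab and ACLP-NT, while the transcription factors overlap in all groups.

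The ULK1 complex gave no member past the test. Ulk1, the kinase that starts autophagosome formation, spanned 83.9 to 96.7 CPM over the 13 libraries, Rb1cc1, its scaffold FIP200, 91.6 to 103 CPM, and Atg101, which stabilises the complex, 17.6 to 25.4 CPM. The log2 fold changes of ACLP-NT against saline were -0.020, 0.029 and 0.018, and those of Aducanumab against saline were -0.046, -0.0070 and 0.039. Both ends of the range of Atg101 were in Aducanumab, mouse 58 lowest and mouse 24 highest.

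Among the class III PI3-kinase complexes, Rubcn had the smallest p in ACLP-NT against saline. It encodes Rubicon, which restrains the kinase in autophagy and takes part in LC3-associated phagocytosis. Its values were 91.8, 86.7, 87.1 and 86.6 CPM in saline, 83.7, 87.6, 83.6 and 86.5 in Aducanumab and 86.1, 84.4, 85.7, 78.7 and 84.2 in ACLP-NT. Every ACLP-NT library was below every saline library, and Aducanumab overlapped both. The means were 88.0 ± 2.48 (SD, n = 4), 85.4 ± 2.01 (SD, n = 4) and 83.8 ± 2.97 CPM (SD, n = 5). The log2 fold change of ACLP-NT against saline was -0.071 (SE 0.0371, unadjusted p 0.0779 and adjusted p 0.858 in edgeR's quasi-likelihood test). Becn1, the beclin subunit, spanned 98.6 to 109 CPM, Pik3c3, the catalytic subunit, 40.8 to 49.6 CPM, Atg14, which directs the complex to autophagosomes, 20.1 to 23.9 CPM, and Uvrag, its counterpart in the endosomal complex, 36.5 to 42.2 CPM.

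Pik3r4, the regulatory subunit VPS15, was at 41.0, 35.8, 36.7 and 38.1 CPM in saline, 36.0, 38.4, 39.3 and 34.6 in Aducanumab and 37.9, 37.7, 40.5, 41.3 and 38.5 in ACLP-NT. The groups overlapped, and the log2 fold change of ACLP-NT against Aducanumab was 0.080 (SE 0.055). Atg9a, the scramblase whose vesicles supply membrane, was at 127, 116, 111 and 101 CPM in saline, 119.9, 115, 118 and 106 in Aducanumab and 114, 119, 121, 122 and 122 in ACLP-NT. The saline libraries held both the highest and the lowest value, and the log2 fold change of ACLP-NT against saline was 0.072 (SE 0.0586). Of the PI3P-binding WIPI proteins, Wipi1 spanned 16.7 to 22.2 CPM and Wipi2, which recruits Atg16l1, 117 to 127 CPM.

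Among the conjugation genes, Atg5 was the member with the smallest p in ACLP-NT against saline. Its product joins Atg12 and forms the ligase that lipidates ATG8 proteins (ENSMUSG00000038160). It was at 22.2, 22.0, 23.4 and 23.0 CPM in saline, 21.8, 23.8, 19.6 and 19.9 in Aducanumab and 20.1, 19.6, 21.3, 20.9 and 21.7 in ACLP-NT. Every ACLP-NT library was below every saline library, and Aducanumab overlapped both. The means were 22.6 ± 0.629 (SD, n = 4), 21.3 ± 1.92 (SD, n = 4) and 20.7 ± 0.858 CPM (SD, n = 5). The log2 fold change of ACLP-NT against saline was -0.13 (SE 0.0647, adjusted p 0.848 in edgeR's quasi-likelihood test). Atg5 and Rubcn were the 2 members of 33 whose groups did not overlap in this comparison, where 2.26% of all genes did not, and in Aducanumab against saline 0 members were free of overlap, beside 2.58% of all genes.

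Atg16l1, which places the ligase on the membrane, had the smallest p in Aducanumab against saline. It was at 69.4, 66.4, 66.6 and 65.6 CPM in saline, 63.7, 67.7, 63.7 and 57.2 in Aducanumab and 67.3, 64.7, 69.2, 65.2 and 66.3 in ACLP-NT. Aducanumab 58 was the lowest of the 13 libraries, Aducanumab 50 lay inside the saline range, and the log2 fold change was -0.087 (SE 0.0489). Atg7, the activating enzyme of both conjugation pathways, was at 26.6, 27.5, 24.0 and 25.4 CPM in saline, 24.6, 22.0, 24.1 and 25.8 in Aducanumab and 24.2, 25.9, 23.5, 26.7 and 27.3 in ACLP-NT. All groups overlapped, and the log2 fold change of Aducanumab against saline was -0.099 (SE 0.0698). The ubiquitin-like Atg12 spanned 64.3 to 74.0 CPM, the conjugating enzyme Atg3 34.0 to 39.8 CPM and the ATG8 protease Atg4b 59.8 to 67.1 CPM. The 5 members with CACGTG in a window, shown above, had a median of -0.021 (log2) in ACLP-NT against saline, with 3 lower, beside 0.0099 for the 21 members with a window without it, of which 9 were lower. The 7 members without a window had a median of -0.015 there. In Aducanumab against saline the medians with and without CACGTG were -0.044 and -0.015, and in ACLP-NT against Aducanumab they were 0.0085 and 0.0080.

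The ATG8 family overlapped between all groups. Gabarapl1 was at 455, 414, 419.9 and 399 CPM in saline, 412, 426, 423 and 379 in Aducanumab and 444, 423, 411, 403 and 421 in ACLP-NT. Saline 18 was highest and Aducanumab 58 lowest, and the log2 fold changes against saline were -0.0052 for ACLP-NT and -0.040 for Aducanumab. Map1lc3b, the LC3B transcript, was at 190.3, 175, 178 and 180.0 CPM in saline, 172, 186, 177 and 178 in Aducanumab and 169, 179.5, 176, 190.0 and 182 in ACLP-NT. Its lowest value and its second highest were both in ACLP-NT, and its log2 fold changes against saline were -0.012 and -0.020. Map1lc3a, the LC3A transcript, was at 85.1, 76.9, 70.3 and 79.8 CPM in saline, 76.0, 71.1, 83.1 and 75.9 in Aducanumab and 82.8, 76.4, 78.0, 75.3 and 73.6 in ACLP-NT. All treated libraries lay inside the saline range.

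Gabarap, the founding member of its subfamily, was at 93.9, 86.9, 93.0 and 102 CPM in saline, 93.5, 89.98, 84.5 and 100.02 in Aducanumab and 96.8, 92.8, 99.8, 94.1 and 97.6 in ACLP-NT. The ACLP-NT values lay inside the range of either other group, with a log2 fold change against Aducanumab of 0.065 (SE 0.0534). Gabarapl2, also called GATE-16, was at 97.6, 92.5, 94.1 and 93.7 CPM in saline, 91.7, 99.8, 99.5 and 100.3 in Aducanumab and 94.2, 91.0, 97.9, 101 and 97.1 in ACLP-NT. In Aducanumab 3 libraries were above all saline libraries and mouse 24 was below them, and the log2 fold change was 0.050.

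Cargo receptors had no member past the test. Sqstm1, whose protein is itself degraded by autophagy, was at 357, 326, 339 and 319.6 CPM in saline, 347, 319, 340.4 and 328 in Aducanumab and 344, 333, 342, 333 and 327 in ACLP-NT. Means were 335 ± 16.5 (SD, n = 4), 334 ± 12.4 (SD, n = 4) and 336 ± 6.76 CPM (SD, n = 5), and the log2 fold change of ACLP-NT against saline was 0.0025 (SE 0.0404), with a 95% interval of -0.084 to 0.089. All ACLP-NT libraries lay inside the saline range. Optn, optineurin, a receptor for damaged mitochondria, was at 17.8, 18.9, 13.4 and 17.1 CPM in saline, 14.6, 17.9, 16.5 and 16.7 in Aducanumab and 15.3, 14.2, 16.8, 16.9 and 13.7 in ACLP-NT. Saline 32 was the lowest of all, and the log2 fold change of ACLP-NT against saline was -0.13 (SE 0.104).

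Nbr1, a receptor related to p62, was at 176, 170.3, 177 and 169.7 CPM in saline, 175, 170.5, 179 and 196 in Aducanumab and 173, 173, 189.8, 181 and 177 in ACLP-NT. Aducanumab 58 and ACLP-NT 49 were the highest, and the log2 fold change of Aducanumab against saline was 0.057 (SE 0.0461). Tax1bp1, a receptor for ubiquitinated aggregates, was at 141, 131, 136 and 145 CPM in saline, 139, 147, 141 and 136 in Aducanumab and 139, 139.7, 156, 143 and 138 in ACLP-NT. ACLP-NT 49 was the highest, with 4 ACLP-NT libraries inside the saline range, and the log2 fold change of ACLP-NT against saline was 0.049 (SE 0.0455).

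In the fusion step, Vps18 was the member with the smallest p in ACLP-NT against Aducanumab. It encodes a core subunit of the HOPS and CORVET tethers (ENSMUSG00000034216). Vps18 was at 58.5, 54.6, 48.1 and 50.8 CPM in saline, 49.4, 47.6, 51.8 and 51.4 in Aducanumab and 53.2, 54.2, 56.4, 54.4 and 52.7 in ACLP-NT. Every ACLP-NT library was above every Aducanumab library, and the saline libraries spread beyond ACLP-NT on both sides. The means were 53.0 ± 4.54 (SD, n = 4), 50.0 ± 1.94 (SD, n = 4) and 54.2 ± 1.42 CPM (SD, n = 5), and the log2 fold change was 0.11 (SE 0.0541, adjusted p 1 in edgeR's quasi-likelihood test). It was the 1 member of 33 without overlap in that comparison, where 1.34% of all genes had none. Rab7 spanned 246 to 276 CPM and the tether Epg5 46.7 to 54.0 CPM, with log2 fold changes of 0.0099 and -0.036 in ACLP-NT against saline.

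The wider pathway was read from 5 further lists, and 0 of their genes passed the adjusted test in any comparison. Of 21 other autophagy genes, 12 were higher and 9 lower in ACLP-NT against saline (median log2 fold change 0.0045), and 3 had an unadjusted p below 0.05 (5.88% of all genes). Sh3glb1, a membrane-bending partner of Uvrag, was at -0.0997 (SE 0.037) and Dapk1, a kinase that acts on beclin, at 0.10 (SE 0.0452). Of 17 other selective autophagy genes 6 were higher and 11 lower (median -0.020), and the smallest p was that of Ccpg1, a receptor for the endoplasmic reticulum. Ccpg1 averaged 106 ± 2.84 CPM (SD, n = 4) in saline, 113 ± 2.74 CPM (SD, n = 4) in Aducanumab and 117 ± 3.55 CPM (SD, n = 5) in ACLP-NT. Its log2 fold change was 0.13 (SE 0.0349, adjusted p 0.722 in edgeR's quasi-likelihood test) for ACLP-NT and 0.096 (SE 0.0368) for Aducanumab against saline. Tollip, a ubiquitin-binding adaptor, was at 0.077 (SE 0.0456) in ACLP-NT against saline and at 0.080 (SE 0.0456) in ACLP-NT against Aducanumab.

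The 16 other fusion genes divided into 8 higher and 8 lower in ACLP-NT against saline, with Rilp, a Rab7 effector of low level, at 0.77 (SE 0.37) and the SNARE Snap29 at 0.072 (SE 0.0716). The 28 genes of mTORC1 and nutrient control, the pathway that phosphorylates TFEB, divided into 14 and 14 with a median of 0.0018, and 2 of 28 had an unadjusted p below 0.05, beside 5.88% of all genes. These were Mcoln1, the lysosomal calcium channel upstream of calcineurin, at -0.12 (SE 0.0466), and Ppp3ca, a catalytic subunit of calcineurin, the phosphatase of TFEB, at 0.19 (SE 0.0842). For Ppp3ca the saline mean was 1242 ± 135 CPM (SD, n = 4) and the ACLP-NT mean 1417 ± 91.1 CPM (SD, n = 5). In Aducanumab against saline the genes with the smallest p in these lists included Bcl2l1 at 0.075 (SE 0.0524), Calcoco1 at 0.070 (SE 0.0361), Vps39 and Vps33a of the HOPS tether at -0.088 (SE 0.047) and -0.054 (SE 0.0471) and Lamtor4 at 0.14 (SE 0.0856). In ACLP-NT against Aducanumab they were Atg4d, Tmem41b, Tollip, Tbk1, Vps11, Vps39, Lamtor3 and Ppp3ca, with log2 fold changes from -0.095 to 0.14.

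Lysosomal genes with reported TFEB sites lay mostly below saline. In ACLP-NT against saline 18 of 21 were lower (median log2 fold change -0.12), where 50.6% of all genes were lower with a median of -0.0015. An unadjusted p below 0.05 was reached by 6 of 21, all of them lower, and by 5.88% of all genes, 756 lower and 542 higher. Mcoln1 is on this list as well as on that of mTORC1 and nutrient control, and it is counted in both. Ctsb, the protease cathepsin B, averaged 746 ± 53.5 CPM (SD, n = 4) in saline, 662 ± 31.8 CPM (SD, n = 4) in Aducanumab and 637 ± 64.1 CPM (SD, n = 5) in ACLP-NT. Its log2 fold change was -0.23 (SE 0.0723, adjusted p 0.746 in edgeR's quasi-likelihood test) for ACLP-NT and -0.17 (SE 0.0764) for Aducanumab against saline. Naglu, a lysosomal enzyme of heparan sulfate breakdown, was at -0.32 (SE 0.109) in ACLP-NT against saline. In Aducanumab against saline 14 of 21 were lower (median -0.043), where 48.7% of all genes were lower with a median of 0.0036. There 1 had an unadjusted p below 0.05 (4.68% of all genes), and Ctsa, a protective carboxypeptidase, was at -0.16 (SE 0.078). In ACLP-NT against Aducanumab 19 of 21 were lower (median -0.048), among them the sialidase Neu1 at -0.087 (SE 0.0426). Of all genes 52.4% were lower there, with a median of -0.0065. An unadjusted p below 0.05 was reached by 0 of the 21 and by 3.24% of all genes.

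Microglia markers differed in the same direction as that lysosomal list. All 11 measured markers were lower in ACLP-NT and in Aducanumab than in saline, with a difference in score of -0.33 and -0.28, and all 10 markers of plaque-associated microglia were lower in both, by -0.50 and -0.33. Other marker lists shared that direction in part. In ACLP-NT against saline 0 of 8 astrocyte, 0 of 8 neocortex, 0 of 5 blood cell and 1 of 7 meningeal fibroblast markers were higher. In Aducanumab against saline these were 3, 0, 5 and 7. Choroid plexus markers were higher in both, 10 of 10, and hippocampal subfield markers mostly so, 9 and 8 of 10. For endothelium and pericytes 4 and 3 of 8 were higher, and for oligodendrocytes 2 and 6 of 8. For neurons these were 3 and 2 of 9, and for oligodendrocyte precursors 2 and 2 of 6. Median log2 fold changes were -0.33 and -0.28 for microglia markers, -0.29 and -0.61 for neocortex and -0.038 and -0.051 for astrocytes. The lysosomal list shares genes with the microglia lists, among them Ctsd. The part of the microglia markers in the lysosomal values was not tested. For the 33 autophagy and TFEB family genes, a fit with the microglia score as a covariate gave 0 members past the adjusted test in each comparison, and Atg5 and Rubcn in ACLP-NT against saline were at -0.10 and -0.053 in it.

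Each of the 33 genes was also correlated over libraries with the scores of 4 marker lists, in 132 pairs, with permutation tests adjusted by Benjamini-Hochberg over the pairs. Correlations were computed for the 33 genes alone. The counts below therefore have no share of all genes beside them, and whether they are unusual was not tested. With the microglia score 0 of 33 genes had an unadjusted permutation p below 0.05 for Pearson's r over 13 libraries, and for Spearman's rho Rubcn did (permutation p 0.0262). The largest r were those of Rubcn (Pearson's r 0.528, Spearman's rho 0.621, adjusted permutation p 0.344 and 0.314) and Atg5 (r 0.497, rho 0.538, adjusted permutation p 0.406 and 0.399). Within groups, after centring, these were 0.239 and 0.183, and without ACLP-NT 27 and 53 they were 0.256 and 0.315. With the neuron score 13 genes had an unadjusted permutation p below 0.05 for Pearson's r and 1 passed after adjustment.

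That gene was Gabarapl1, with r 0.85 (permutation p 0.00017, adjusted 0.0224) and rho 0.742 (permutation p 0.0051, adjusted 0.21), and 0.864 after centring on groups. Without Aducanumab 58 and saline 38, the libraries farthest from the median score, r was 0.653 (permutation p 0.0317, n = 11). Of the 13 genes, Gabarapl1 alone kept an unadjusted permutation p below 0.05 without them. Uvrag (permutation p 0.00562) and Rubcn (permutation p 0.0478), not among the 13, then fell below it. Tfeb ran opposite to Gabarapl1, with r -0.766 (permutation p 0.00184, adjusted 0.081) and rho -0.72 (permutation p 0.00728, adjusted 0.21). Without the same libraries its r was weaker, at -0.437 (permutation p 0.178, n = 11), over a narrower range of scores. With the oligodendrocyte score 5 genes had an unadjusted permutation p below 0.05 for Pearson's r and 1 passed after adjustment. Gabarapl2 had r 0.808 (permutation p 0.00073, adjusted 0.0482) and rho 0.868 (permutation p 0.00028, adjusted 0.037), 0.859 after centring on groups, and 0.868 (permutation p 0.00087, n = 11) without ACLP-NT 17 and 27. Atg101 had r -0.717 (permutation p 0.00536, adjusted 0.126) and rho -0.786 (adjusted 0.143), and -0.748 without those libraries. All of these points share library depth and tissue make-up.

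**Figure D5:**
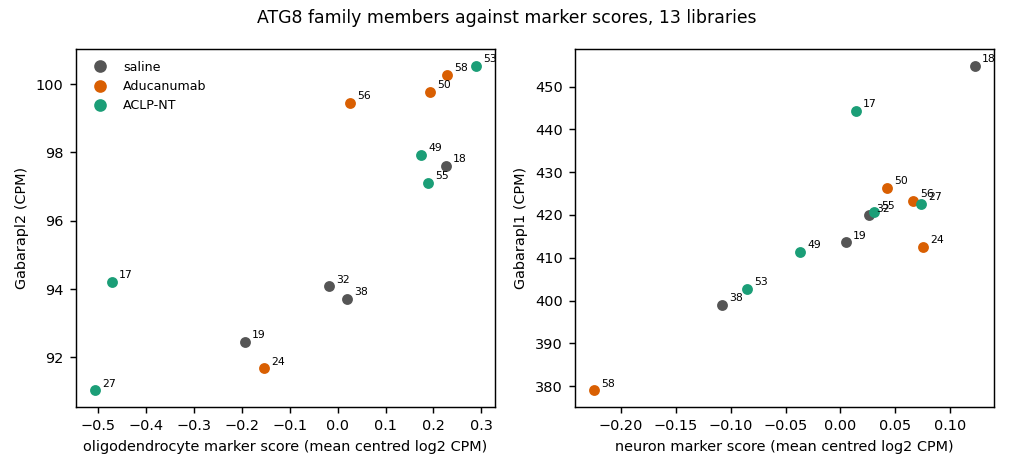
CPM of Gabarapl2 against the oligodendrocyte marker score and of Gabarapl1 against the neuron marker score (mean centred log2 CPM), with 1 point per library, coloured by group and numbered by mouse. Libraries with a higher oligodendrocyte score have more Gabarapl2 (r 0.808), and Aducanumab 58 stands at the low end of the neuron score with the lowest Gabarapl1 (379 CPM).

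Choroid plexus scores fell into separate clusters, with saline 18 and 32, Aducanumab 50 and ACLP-NT 55 between -3.34 and -2.51 and the other 9 libraries above -1, so relations were computed over those 9. There 4 genes had an unadjusted p below 0.05 for Pearson's r and 0 passed after adjustment in exact permutation tests. Gabarapl2 had r 0.784 (exact permutation p 0.0149, adjusted 0.227), rho 0.817 (adjusted 0.21) and 0.792 without saline 19 and Aducanumab 24. Tfe3 had r -0.768 (exact permutation p 0.0167, adjusted 0.227), rho -0.533 (adjusted 0.541) and a weaker r of -0.324 without those libraries. Tfeb had r 0.715 (exact permutation p 0.0338, adjusted 0.279), rho 0.767 (adjusted 0.314) and 0.853 without them. Mitf had r 0.71 (exact permutation p 0.0283, adjusted 0.267), rho 0.567 (adjusted 0.497) and a weaker r of 0.339 without them. The restriction to 9 libraries was chosen after their scores were seen.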

How the data were processed

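Poly(A)-selected hippocampal RNA of 13 5xFAD mice was sequenced in bulk. Per the file headers, the deposited table gives raw counts and FPKM per gene and library. The deposited counts are whole and not normalized. The authors' FPKM values are relative to transcript length and library size. The tools listed in the submitters' processing notes, without their roles, are edgeR, StringTie 1.3.4d, HISAT2 2.0.4 and cutadapt 1.9. Counter, annotation and genome build: not given in the sources used here. None of the table's start and end pairs of the 33 genes matched a GRCm38 annotation, so its coordinates were not mixed with the RefSeq promoter windows.

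Genes were filtered with filterByExpr, scaled by TMM and compared with the quasi-likelihood test of edgeR 4.0.16 (R 4.3.3, two-sided). All 3 groups entered 1 fit, p-values were adjusted by Benjamini-Hochberg over 22065 genes, and the threshold was 0.05. The method was tested on simulated data. The SE was derived from F, as the size of the log2 fold change over the square root of F, and the 95% intervals use it with the degrees of freedom of the fit. CPM values are after TMM, and log2 CPM for scores uses a prior count of 2. Correlations used 100000 permutations, or every ordering below 10 libraries. Alternatives were DESeq2 1.42.0, limma 3.58.1 on log2(FPKM + 1) or log2(FPKM + 0.1), no filter or a mean FPKM of at least 5, RLE or upper quartile scaling, robust dispersion, a fit of the compared groups alone, a marker score as covariate and each library left out.

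Values per library are printed for the 3 transcription factors, the ATG8 genes, Sqstm1 and the 5 members with the smallest unadjusted p in each comparison, and for each wider list and comparison the 2 genes with the smallest p are named. The members and lists were chosen with earlier results of these data known. Listed genes without a match by symbol, among them Fcrls and Vamp7, were not used here. Within-group library pairs differed by more than counting error, so each library counts as 1 sample.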

Additional observations from a re-analysis of the deposited data

Results flagged for a closer look

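In 6 of 99 groups of libraries examined (33 genes in 3 groups, 6.06%), 1 library stood apart from the others by Dixon's criterion, which chance meets in about 1 of 20 groups. Ulk1 was at 83.86 CPM in Aducanumab 58 and at 89.62 to 90.71 CPM in the other libraries of that group. Rubcn was at 91.76 CPM in saline 18, where the other saline libraries lay at 86.62 to 87.05 CPM, and at 78.73 CPM in ACLP-NT 53, where the others lay at 84.2 to 86.14 CPM. Gabarapl2 was at 91.67 CPM in Aducanumab 24 against 99.45 to 100.3 CPM. Tax1bp1 was at 156.4 CPM in ACLP-NT 49 against 138.2 to 143.1 CPM, and Epg5 was at 53.33 CPM in ACLP-NT 17 against 48.1 to 49.19 CPM.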

How the results depend on the processing

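In the 24 alternative settings, 11 of them other than leaving out a library, 0 members passed in any comparison, with a smallest adjusted p of 0.642. Vps18, Atg5, Atg16l1, Atg9a and Optn had an unadjusted p below 0.05 in some settings. The smallest was 0.0165 in edgeR's quasi-likelihood test, for Vps18 in ACLP-NT against Aducanumab. DESeq2 called 9 genes in ACLP-NT against saline, 18 in Aducanumab against saline and 3 in ACLP-NT against Aducanumab, none of them a member, where edgeR called 0. With each library left out in turn, the genes called ran from 0 to 1 in every comparison and in the test for any difference: 1 without saline 32 (both comparisons with saline, any difference) and 1 without ACLP-NT 49 (both comparisons with Aducanumab, any difference). Of 2346 values of single members, 2193 (93.5%) kept their sign. A direction was read as reversed only where the value exceeded its SE, which 21 of 99 did, and 0 of these reversed. The largest log2 fold change of a member under any setting was 0.312 in size. The filter at a mean FPKM of 5 left 23 members. The median log2 fold change of all genes was at most 0.00765 in size in any setting and comparison. The 95% intervals are widest for Mitf, where a 1.5-fold change lies inside them. No paired analysis was possible because the groups share no replicate number.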
